A study of Bos taurus with 15 samples.

Results

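A set of 46 genes was expressed at a lower level after transfection with LEUTX, while its mean level with WT ARGFX and with mutant ARGFX stayed near that of the control. The genes were chosen from their measured values. For each of the 21665 genes of the count table, the count was scaled to a sample total of 1000000 (CPM), and the CPM were averaged over the samples of each group. A gene was taken if its control mean was at least 5 CPM, its LEUTX mean was at most 1/3 of the control mean, and its means with WT and mutant ARGFX each lay between 0.8 and 1.25 times the control mean. Of 10258 genes with a control mean of at least 5 CPM, 316 met the LEUTX limit, and 46 of these (14.6%) also met both ARGFX limits. The levels of these 46 genes by group, and the counts of members called by a fit across all genes, are therefore a description and no support for a difference.

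The cells were primary bovine fetal fibroblasts (BFFs), the matrix-forming cells of connective tissue, grown from the torso skin of a single *Bos taurus* fetus aged 6 months and used at passage 4. Cells were electroporated with a plasmid in which the CMV promoter drives the inserted gene, selected with puromycin, and taken for RNA sequencing after 72 h. The plasmid was empty (control, 4 samples) or carried bovine ARGFX in its wild-type form (WT ARGFX, 4 samples), an ARGFX allele with a frameshift deletion that removes the homeodomain (mutant ARGFX, 3 samples), or bovine LEUTX (4 samples). The inserted genes carried a linker and a FLAG tag at the C-terminus. The genes were thus overexpressed in a cell type that does not use them, from cells of 1 fetus, and replicates are separate samples of these cells. Total counts per sample ranged from 25947911 to 41554242. LEUTX mRNA was at 1480 ± 203 CPM (SD, n = 4) in the LEUTX samples and at no more than 0.0369 CPM in any control, and ARGFX mRNA was at 3424 ± 720 CPM with WT ARGFX (SD, n = 4) and 5462 ± 1592 CPM with mutant ARGFX (SD, n = 3).

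LEUTX and ARGFX are members of the ETCHbox group of PRD-class homeobox genes, which arose by duplication of Crx in the ancestors of placental mammals. Their proteins are transcription factors that bind DNA through the homeodomain, and in the animal the genes are used mainly in the early embryo, around the time the embryonic genome is switched on. Fibroblasts do not normally express them. In bulk RNA, fewer cells expressing a gene and less RNA per cell cannot be told apart.

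The deposited table names the genes by Ensembl identifiers without symbols, and no identifier matched the RefSeq gene table of the assembly ARS-UCD2.0. What these genes encode was therefore not analysed here, and neither were fibroblast markers or the markers of other skin cells. The 46 genes are numbered from 1, with the lowest LEUTX to control ratio, to 46, with the highest.

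The gene lowered most was ENSBTAG00000012247.5, member 1. It was at 326, 313, 264 and 234 CPM in the 4 control samples, and at 24.7, 21.8, 22.5 and 22.6 CPM in the 4 LEUTX samples. Its level was 240, 245, 246 and 225 CPM with WT ARGFX, and 362, 384 and 311 CPM with mutant ARGFX. The LEUTX samples lay close together and far below all others, whereas WT ARGFX overlapped the lowest control and mutant ARGFX overlapped the higher ones. The mean fell from 284 ± 42.7 CPM in control to 22.9 ± 1.24 CPM with LEUTX (SD, n = 4 each), a 12.4-fold difference. The log2 fold change in edgeR's fit was -3.54 ± 0.12 (SE). Each SE was derived here as the absolute log2 fold change over the square root of the test's F statistic. The WT ARGFX mean was 0.841 times and the mutant ARGFX mean 1.24 times the control, so this gene lay near both ends of the allowed band, and mutant ARGFX exceeded WT ARGFX by 1.47 times.

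The gene with the highest level in control was ENSBTAG00000017312.4, member 37. Its control samples were at 2205, 2670, 2016 and 1776 CPM, and its LEUTX samples at 561, 540, 714 and 707 CPM. WT ARGFX samples were at 1865, 1430, 1635 and 2177 CPM, and mutant ARGFX samples at 1660, 2457 and 1563 CPM. Control and both ARGFX groups overlapped widely, and the LEUTX samples were below all of them. The mean went from 2167 ± 379 CPM in control to 630 ± 92.8 CPM with LEUTX (SD, n = 4 each), a ratio of 0.291. With LEUTX this gene therefore remained at a higher level than most of the set reached in control.

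**Figure D1:**
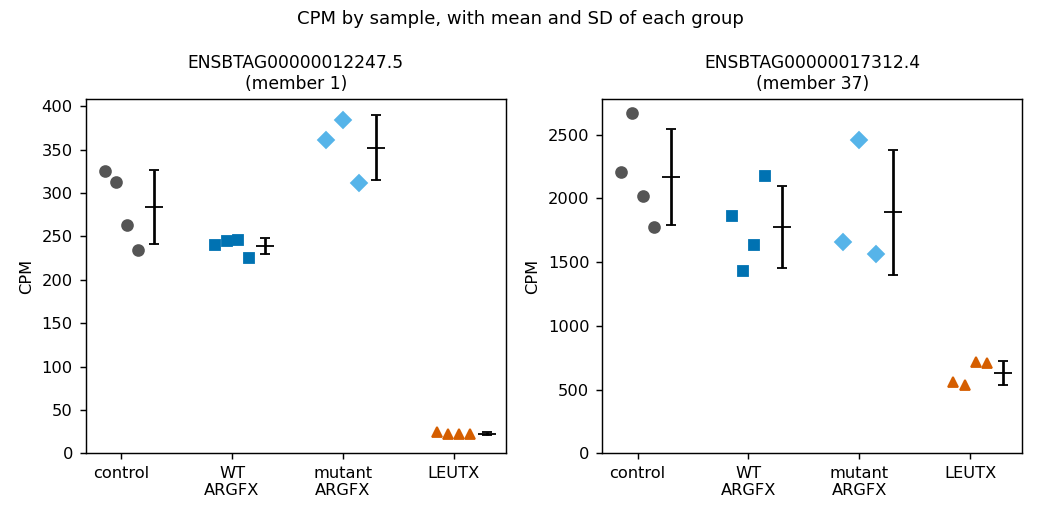
CPM in each sample for the member with the lowest LEUTX to control ratio (left, ENSBTAG00000012247.5) and for the member with the highest control level (right, ENSBTAG00000017312.4). Points are samples (4 control, 4 WT ARGFX, 3 mutant ARGFX, 4 LEUTX), the cross and bars beside them are the mean and SD, and in both genes the LEUTX points lie below every other point.

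The set covered a wide range of expression. Control means ran from 5.25 to 2167 CPM with a median of 22.9 CPM, compared with a median of 32.4 CPM over all 10258 genes with a control mean of at least 5 CPM. In control, 11 members were at 100 CPM or more, 15 at 20 to 100 CPM and 20 under 20 CPM. With LEUTX the means ran from 0.974 to 630 CPM with a median of 5.18 CPM, and 23 members were under 5 CPM. No member was lost altogether: the lowest count of any member in a LEUTX sample was 15, against 110 as the lowest in a control sample.

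Most of the transcript output of the set came from 3 genes. These were member 37, member 30 (1166 CPM in control) and member 23 (1152 CPM), which together held 62.3% of the summed CPM of the set in control and 66.1% with LEUTX. The summed CPM was 7205 ± 504 in control, 6617 ± 178 with WT ARGFX, 7478 ± 398 with mutant ARGFX and 1868 ± 72.4 with LEUTX (SD, n = 4, 4, 3 and 4). The LEUTX sum was 25.9% of the control sum, and 23.3% once the 3 highest members were left out, so the total was not set by these genes alone.

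The decrease with LEUTX was mostly moderate. The LEUTX to control ratio ran from 0.0806 to 0.329 with a median of 0.249, which is 3.04-fold to 12.4-fold lower with a median of 4.02-fold. Only members 1 and 2 had a ratio of 0.1 or less. A ratio of 1/5 or less was found in 11 members (23.9%), whereas 161 of the other 270 genes that met the LEUTX limit (59.6%) were that low, with a median ratio of 0.173. The members were thus less deeply lowered by LEUTX than the genes that the ARGFX limits excluded, which is a description of groups that the choice itself separates.

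Member 2 was the other gene lowered at least 10-fold, at a much lower level than member 1. It was at 10.4, 8.73, 11.7 and 10.2 CPM in control and at 1.11, 0.788, 1.04 and 0.950 CPM with LEUTX. With WT ARGFX it was at 9.25, 11.3, 11.2 and 8.34 CPM, and with mutant ARGFX at 9.72, 8.45 and 11.4 CPM. Control, WT and mutant ARGFX shared the same range, and each LEUTX sample was far under it. Its ratios to control were 0.975 with WT ARGFX and 0.960 with mutant ARGFX, so of the most strongly lowered pair it was the one whose ARGFX levels lay nearest to control.

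The LEUTX samples stood apart in every member. In 46 of 46, each of the 4 LEUTX samples was below each of the 11 other samples, an arrangement found in 15.4% of all genes with a control mean of at least 5 CPM. The lowest other sample exceeded the highest LEUTX sample by 1.22 to 9.11 times, with a median of 2.55 times, and by at least 2 times in 38 members. The gap was narrowest in member 44, where the highest LEUTX sample was at 44.4 CPM and the lowest other sample, one of the WT ARGFX samples, at 54.3 CPM. By edgeR's quasi-likelihood test at an adjusted p of 0.05 and a fold change of 1.5, all 46 were called lower than control, against 14% of all 14264 genes tested, and all 46 lower than WT ARGFX, against 11.8%. The choice of members used these group means, so both counts and the separation of the samples are a description. The median log2 fold change against control was -1.91, with a range of -3.54 to -1.51 and a median SE of 0.14, and was -0.03 over all genes tested.

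**Figure D2:**
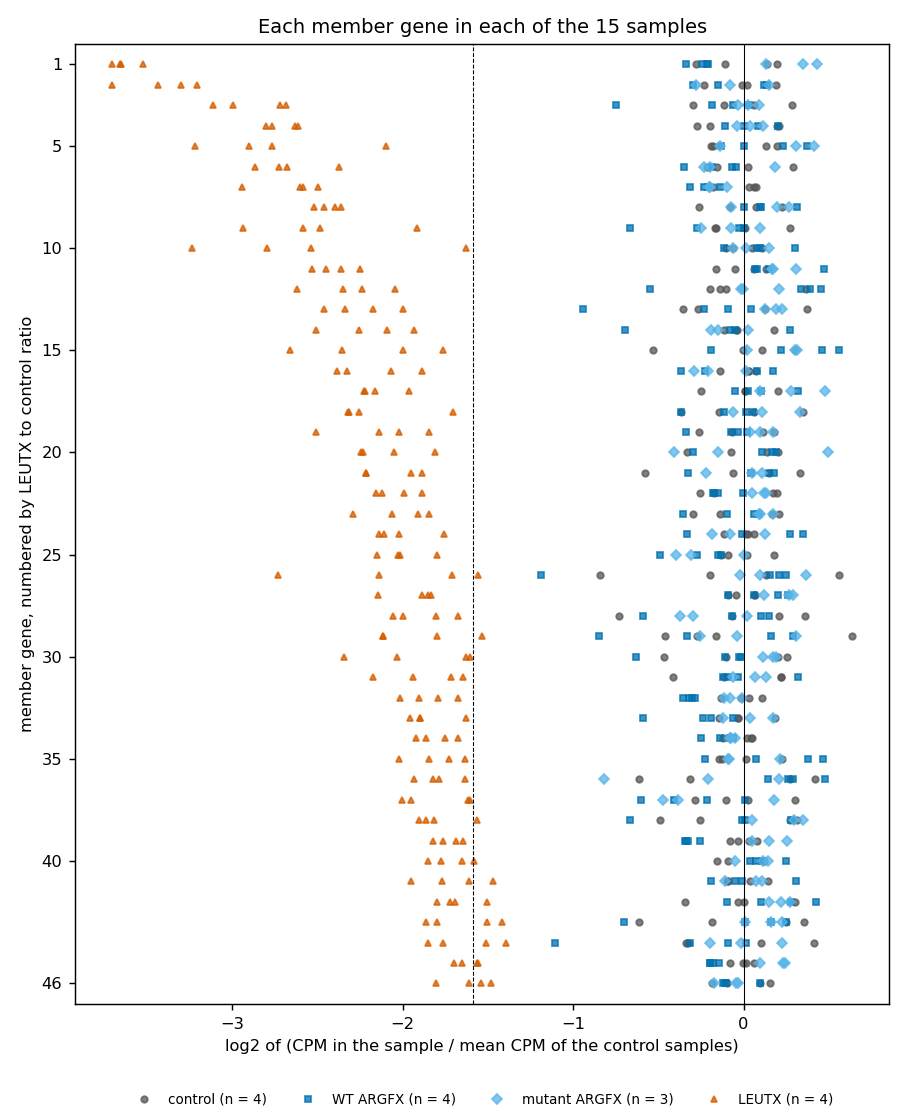
Each row is 1 of the 46 members, numbered by LEUTX to control ratio, and each point is 1 sample, placed at the log2 of its CPM over the mean CPM of the 4 control samples. The solid line marks the control mean and the dashed line 1/3 of it, and in every row the 4 LEUTX points (triangles) lie left of all control, WT ARGFX and mutant ARGFX points.

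The LEUTX samples also resembled each other in the median over all members, which pools subsets, described below, that differed in their course over these samples. The median ratio of the members to their control mean was 0.259, 0.254, 0.229 and 0.248 in LEUTX samples 1 to 4. No LEUTX sample held any member at more than 0.380 times its control mean. In contrast, the lowest member ratio was 0.557 in control 2 and 0.438 in one of the WT ARGFX samples, which places the lowest single values outside LEUTX above the highest single values with LEUTX.

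Selection on the ARGFX levels removed most genes that LEUTX lowered. Of the 316 genes at or under 1/3 of control with LEUTX, 249 had a WT ARGFX mean under 0.8 times control, 14 had one over 1.25 times and 53 lay between. With mutant ARGFX the corresponding numbers were 201, 16 and 99. Of the 270 genes that were not members, 53 had only the mutant ARGFX mean within the limits, 7 had only the WT ARGFX mean within them, and 210 had neither. These 210 included 198 genes with both means under 0.8 times control. Among all genes with a control mean of at least 5 CPM, 62.1% lay within both ARGFX limits, and the 46 members made up 0.722% of these 6368 genes. In the opposite direction, 105 genes were at 3 times control or more with LEUTX and 39 of these lay within both ARGFX limits. A WT ARGFX mean under 0.8 times control was the most frequent pattern among these 316 genes. The share of all genes with such a mean was not computed, so this is a count within the 316 alone. These comparisons share the control samples.

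**Figure D3:**
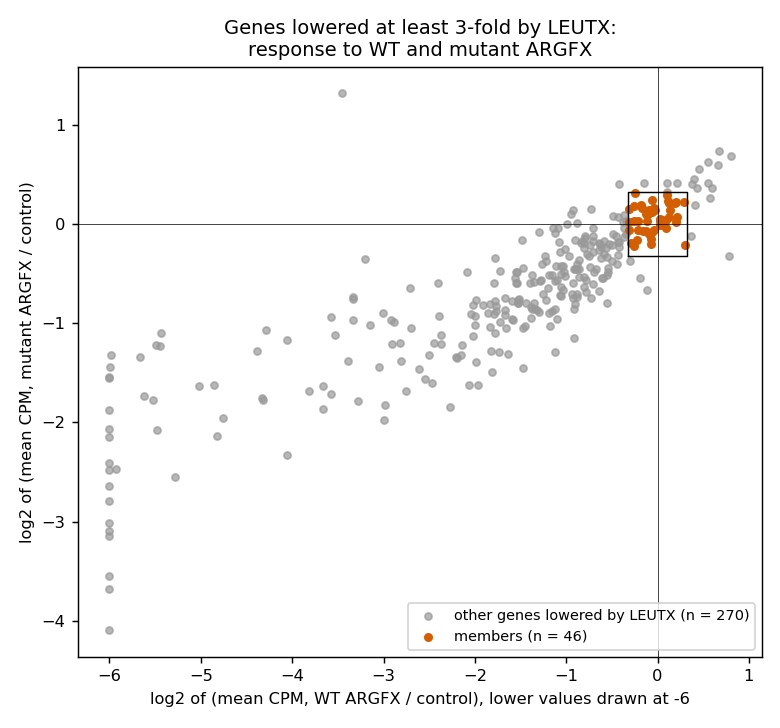
The 316 genes at or under 1/3 of control with LEUTX, placed by the log2 ratio of the mean CPM with WT ARGFX to control (horizontal) and with mutant ARGFX to control (vertical). The box marks the limits of 0.8 and 1.25 times control that hold the 46 members, 15 of the other 270 genes are drawn at -6 because their ratio was lower, and most of the others lie below and left of the box.

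Within the limits, the ARGFX means lay on both sides of control. The WT ARGFX mean was under the control mean in 28 members and over it in 18, with a median ratio of 0.958. The mutant ARGFX mean was under control in 15 and over it in 31, with a median ratio of 1.03. The combination of a lower WT and a higher mutant mean occurred in 16 members and the reverse in 3, while 15 were over control in both and 12 under in both. The median member ratio was 0.962, 1.03 and 0.998 in 3 of the WT ARGFX samples and 0.814 in the unnumbered one with the higher total. Without that sample the median WT ARGFX to control ratio was over 1, both in the 18 members described below that follow an axis of differences within groups (1.04) and in the other 28 (1.01). With control 2, which lies at the same end of that axis, left out as well, these medians were 0.957 and 0.998. These ratios and counts of members use CPM scaled to the sample total alone. The edgeR log2 fold changes, which also use TMM scaling, had medians of -0.00 with WT ARGFX and 0.06 with mutant ARGFX, so the lean below control with WT ARGFX was not seen in them.

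Because the limits of 0.8 and 1.25 hold the ARGFX means near control, the overlap of samples and the calls with ARGFX are set largely by the choice of members. Control and WT ARGFX samples overlapped in 42 members. In the other 4 (members 25, 32, 39 and 45) all WT ARGFX samples were under all controls, against 30.3% of genes with no overlap in either direction among those with a control mean of at least 5 CPM. Control and mutant ARGFX samples overlapped in 43 members, and in members 11, 27 and 45 all mutant ARGFX samples were over all controls, against 28.2% of genes without overlap. No member could be far from control in either ARGFX group, and the edgeR log2 fold changes ran from -0.26 to 0.37 with WT ARGFX and from -0.22 to 0.33 with mutant ARGFX. With the fold change limit of 1.5, edgeR called 0 members with WT ARGFX, against 13% of all genes tested, and DESeq2 also called 0. With mutant ARGFX edgeR and DESeq2 called 0 as well, against 3.83% of genes by edgeR. The choice of members fixed both counts of 0, and nothing is read from them.

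Without the fold change limit, a step added after the data had been seen, edgeR called 2 members with WT ARGFX (members 32 and 39, both lower), against 30.9% of genes, and 0 with mutant ARGFX, against 10.2%. Member 32 was at 76.8, 80.8, 74.3 and 68.4 CPM in control and at 60.3, 61.7, 60.9 and 58.8 CPM with WT ARGFX. With mutant ARGFX it was at 69.3, 74.7 and 71.2 CPM, inside the control range, and with LEUTX at 18.6, 20.1, 21.7 and 23.5 CPM. The step down was small with WT ARGFX, at 0.805 times the control mean, and larger with LEUTX, at 0.279 times. Both WT ARGFX calls were lost without control 2, without WT ARGFX 1, without WT ARGFX 2, without the unnumbered WT ARGFX sample with the lower total, or when the groups were fitted alone. With mutant ARGFX, 1 member was called without control 2.

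The limits also held the WT and mutant ARGFX means near each other. The authors had removed 1 mutant ARGFX sample that clustered with the WT ARGFX samples. Differences between WT and mutant ARGFX, here and in single members, therefore depend on that removal. The mutant ARGFX mean was above the WT ARGFX mean in 31 of 46, and the ratio of mutant to WT ran from 0.701 to 1.47 with a median of 1.05. All WT ARGFX samples were under all mutant ARGFX samples in 8 members and above them in 0, against 15.5% of genes with no overlap in either direction. DESeq2 called 3 members at an adjusted p of 0.05, and its share over all genes was not computed. At the same limit edgeR called 2 members, both lower with WT ARGFX (members 1 and 39), against 2.09% of genes. Both calls were lost without any 1 of WT ARGFX 1, WT ARGFX 2, the unnumbered WT ARGFX sample with the lower total, mutant ARGFX 1 or mutant ARGFX 2.

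Member 39 was the only member that edgeR called, without the fold change limit, with WT ARGFX against both control and mutant ARGFX. It was at 55.4, 59.8, 57.8 and 53.6 CPM in control, 44.7, 44.8, 45.2 and 47.5 CPM with WT ARGFX, and 67.5, 62.9 and 58.6 CPM with mutant ARGFX. With LEUTX it was at 17.6, 16.1, 16.7 and 18.1 CPM. The samples of each group lay close together, WT ARGFX formed its own level between LEUTX and control, and mutant ARGFX overlapped the upper controls. Its WT ARGFX ratio of 0.804 was the lowest of the set.

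Member 45 was the gene that lay apart from control with both forms of ARGFX, in opposite directions. It was at 255, 243, 231 and 246 CPM in control, 213, 216, 221 and 213 CPM with WT ARGFX, and 287, 289 and 261 CPM with mutant ARGFX. With LEUTX it was at 77.6, 82.7, 82.9 and 75.3 CPM. The 4 groups did not overlap, in the order LEUTX, WT ARGFX, control and mutant ARGFX, although its WT and mutant ARGFX ratios were only 0.884 and 1.14. edgeR did not call it with either form of ARGFX.

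Samples of the same group differed from each other in part of the set, which the choice of members did not use. The SD of log2(CPM + 0.5) between samples of a group, pooled over the groups, had a median of 0.196 over the members, compared with 0.160 over the 10212 other genes with a control mean of at least 5 CPM and 0.226 over the other 270 genes that met the LEUTX limit. Across genes, 66.5% of the variance within groups lay on a single axis, computed as the first principal component of the deviations from the group means with the members left out. Control 2 (score 0.227) and the unnumbered WT ARGFX sample with the higher total (score 0.339) were at one end of this axis and control 3 (score -0.240) at the other, while the LEUTX samples ran from -0.136 to 0.152. Control 2 also had the fewest detected genes of the controls (15397), and that WT ARGFX sample the fewest of its group (15609). The axis was computed from CPM scaled to the sample total alone. In control, the TMM factor fell along it from 1.10 in control 3 to 0.983 in control 2. That WT ARGFX sample had the lowest TMM factor of its group (0.925). The factor also fell along the axis in mutant ARGFX, but not in the order of the scores with LEUTX. Whether the axis reflects this scaling was not tested.

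A subset of 18 members followed this axis, with a correlation of their deviations with the axis score under -0.7 over the 15 samples (39.1% of the members, and 31.6% of the other genes). A correlation over 0.7 was found in 2 members (4.35%, and 16.8% of the other genes). These correlations describe deviations within shared libraries and carry no test. In the 18 genes the median coefficient of variation was 22.2% in control and 14.6% with LEUTX, and in the other 28 members it was 10.5% and 10.3%. The median pairwise correlation of the deviations was 0.758 among the 18 genes and 0.0288 among the other 28, a contrast that follows from choosing the 18 by the axis.

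**Figure D4:**
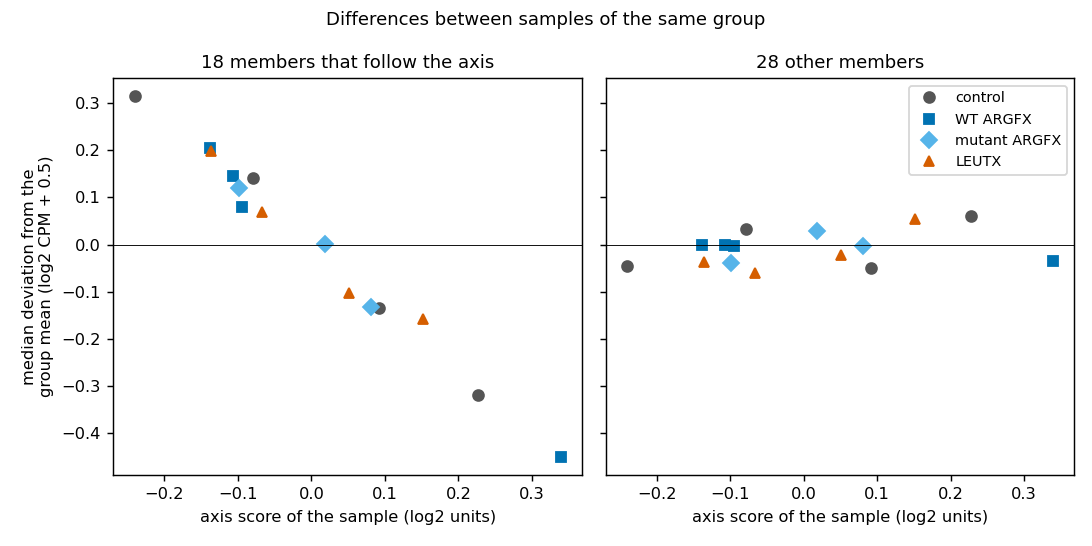
The median deviation of the members from their group mean (log2(CPM + 0.5), vertical) in each of the 15 samples, against the score of the sample on the axis of differences within groups (log2 units, horizontal). The 18 members on the left were chosen for declining along the axis, which runs from control 3 (score -0.240) to the unnumbered WT ARGFX sample (0.339), and the 28 on the right, whose median stays near 0, mix members that rise and fall along it.

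Member 26 followed the axis most closely, with a correlation of -0.98. It was at 199, 101, 268 and 158 CPM in control, 202, 210, 216 and 79.5 CPM with WT ARGFX, and 194, 179 and 234 CPM with mutant ARGFX. With LEUTX it was at 61.8, 55.5, 41.3 and 27.3 CPM. The low values of control 2 and of 1 WT ARGFX sample came near the highest LEUTX sample, and the lowest other sample exceeded the highest LEUTX sample by only 1.29 times. Members 30 and 23, the second and the third in level, also belonged to these 18 genes. Member 30 was at 1392, 844, 1343 and 1087 CPM in control and at 384, 378, 286 and 230 CPM with LEUTX, so its lowest control was again control 2.

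With all samples, the median decrease with LEUTX was close in both subsets. The choice of members capped the LEUTX to control ratio in both. This closeness and the gap to the controls are therefore a description. The median LEUTX to control ratio was 0.244 in the 18 members that followed the axis and 0.251 in the other 28. By sample, from LEUTX 1 to LEUTX 4, the median was 0.286, 0.262, 0.222 and 0.201 in the 18 genes. In the other 28 it was 0.229, 0.250, 0.239 and 0.273. Without control 2 the median LEUTX to control ratios lay further apart, at 0.220 in the 18 genes and 0.259 in the other 28. The lowest control sample exceeded the highest LEUTX sample by at least 1.64 times in the 18 genes and by at least 2.03 times in the others. The median WT ARGFX to control ratio of the 18 genes was 0.953, and was 1.04 without the WT ARGFX sample at the end of the axis and 0.957 without that sample and control 2.

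The members nearest to each limit of the choice lay close to genes outside it. At the LEUTX limit, the 3 nearest members had ratios of 0.326 to 0.329 and the 3 nearest genes outside 0.335 to 0.339. At the lower WT ARGFX limit, the nearest members were at 0.804 to 0.806 and the nearest genes outside at 0.777 to 0.789. At the upper WT ARGFX limit, the nearest member was at 1.23 and the nearest gene outside at 1.29. At the mutant ARGFX limits, the nearest members were at 0.856 and 1.24, and the nearest genes outside at 0.769 and just above 1.25. The control minimum fell between a member at 5.25 CPM and a gene at 4.23 CPM. When each sample was left out in turn, 26 of the 46 members met all limits every time. Of the rest, most crossed an ARGFX limit: 12 crossed that of mutant ARGFX, 10 that of WT ARGFX and 5 that of LEUTX at least once, and a member could cross more than 1. Among the members described singly, members 1, 26, 32, 37, 39 and 44 crossed a limit at least once. Members 2, 23, 30 and 45 never did.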

How the data were processed

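RNA-seq of 15 samples of BFFs was used (4 control, 4 WT ARGFX, 3 mutant ARGFX and 4 LEUTX). The authors removed 1 further mutant ARGFX sample as an outlier because it clustered with the WT ARGFX samples, and it was not used here. The authors trimmed reads with Trimmomatic, quantified them with kallisto 0.46.1 against the ARS-UCD1.2 transcriptome with ETCHbox sequences added, and summed transcripts to genes with tximport. The deposited values are expected counts per gene without normalization, and 93.1% of them are exactly whole numbers (no tolerance). Exactly whole counts in every sample were found for 42 of the 46 members (91.3%), against 89.2% of genes with a control mean of at least 5 CPM. Groups came from the sample titles, and 2 WT ARGFX columns with the same header were used without a replicate number. Here counts were rounded and fitted with edgeR 4.0.16 (R 4.3.3; TMM, filter on low counts, quasi-likelihood test, 1 fit to all samples, Benjamini-Hochberg adjustment). The p-values set differences of group means against the spread between these samples, which share 1 fetus. DESeq2 1.42.0 was an alternative, beside other scalings, a replicate block and each sample left out. CPM, the axis and the figures were computed in Python 3.11.15. Only the edgeR and DESeq2 fits of LEUTX against control were also run on simulated counts, with independent samples. The choice of members and the axis were not simulated. The members and lists were chosen with earlier results of these data known. The identifiers printed are those of the member with the lowest LEUTX to control ratio and of the member with the highest control level, and other members appear by number because no symbols were matched. Members 2, 23, 26, 30, 32, 39, 44 and 45 were singled out after their values were seen. Intervals were not computed, and no pair of samples agreed within sampling noise (lowest chi-square per degree of freedom within a group 6.44).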

Additional observations from a re-analysis of the deposited data

Results flagged for a closer look

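In the control, WT ARGFX and LEUTX groups, 20 sets of 4 values were examined for a sample far from the others, and 1 was noted. The limit used is passed by chance in about 1 in 20 independent sets, but these sets share their libraries. On the axis of differences within groups, the unnumbered WT ARGFX sample with the higher total had a score of 0.339, while the other 3 WT ARGFX samples lay between -0.138 and -0.0948. In this sample the members were at a median of 0.814 times their control mean, compared with 0.962 to 1.03 times in the other WT ARGFX samples. With that sample left out, 48 genes met the limits of the choice.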

How the results depend on the processing

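The number of genes that met the choice was 43 with TMM-scaled CPM, 42 with DESeq2 size factors, 43 with group medians, 49 with the 13 numbered samples only and 42 to 52 with each sample left out in turn, and 24 of the 46 members stayed under all of these. All 46 members were called lower with LEUTX than control, and than WT ARGFX, under each alternative tried, and their median log2 fold change against control stayed between -1.95 and -1.88. In the main fit, 14% and 11.8% of all genes tested were so called. The choice of members used these same samples. Such counts and fold changes, here and with the block below, are therefore a description and no support. With the fold change limit removed, 2 members instead of 0 were called with WT ARGFX. The median within-group SD was 0.188 with a pseudocount of 1 and 0.204 with TMM-scaled CPM. Deviations of samples with the same replicate number had a mean correlation of 0.00456 over 16 pairs (-0.455 to 0.485). A mean near 0 over so wide a range cannot exclude that the samples were paired, and 2 WT ARGFX samples had no number. With the number as a block, on the numbered samples, 46 members were called lower than control and 46 lower than WT ARGFX, 0 were called with WT or with mutant ARGFX, and the median log2 fold change was -1.90. Without the fold change limit, the block gave 1 call with WT ARGFX and the same samples without it 2, and over all alternatives this number was 0 to 3. The planned description of promoter motifs was not run because the identifiers could not be matched to sequences. Each member had 15 counts or more in every sample. How reads shared by near-identical genes were divided was not tested, and 4 members had fractional counts.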
